A study of Mus musculus with 30 samples.

Results

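White adipocyte genes were followed across mammary tumors as 10 genes of adipocyte identity, lipid storage and secretion, chosen by symbol: Pparg, Lpl, Fabp4, Plin1, Plin4, Cidec, Adipoq, Lep, Cfd and Retn. All 10 were among the 21841 genes of the table, and all 10 passed the filter on low counts that left 13663 genes for testing. RNA was sequenced from 30 breast tumors, 5 in each of 6 groups, of the FVB/N-Tg(MMTV-PyVT)634Mul/J strain. In this strain the mammary tumor virus promoter drives the polyoma middle T antigen in mammary epithelium and tumors arise spontaneously. The labels give the genotype as WT in every group, vehicle included, and no age. Injections were intraperitoneal, and the labels give a time of 72 h for every tumor. The vehicle group received no drug. 5-FU, an antimetabolite that blocks thymidylate synthase, was given at 40 mg/kg every 4 days, and gemcitabine, a cytidine analog, at 64 mg/kg every 7 days. KCL-HO-1i, an inhibitor of the heme-degrading enzyme heme oxygenase-1, was given daily at 25 µmol/kg, alone or with 5-FU or gemcitabine at those doses. The study's text gives another length of treatment and another gemcitabine dose than the labels, so both are given here as labelled. The question asked of these genes was whether their RNA differed between the treatments and from tumor to tumor.

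White adipocytes store triglyceride in a large lipid droplet coated by perilipins, take up fatty acids that lipoprotein lipase frees from circulating lipoproteins, and secrete hormones such as adiponectin and leptin. PPARγ, with C/EBP factors, drives their differentiation and switches on many of the genes described here. The mammary gland grows within a fat pad rich in these cells, and mammary tumors arise in contact with it. The tumors were sequenced whole, so a smaller number of adipocytes and less of a gene's RNA in each adipocyte cannot be told apart.

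The upstream sequences of 4 of these genes are shown because the 10 genes varied together over the tumors, as described further on, and these 4 hold between them the differentiation factor and 3 secreted products. Each is the 250 bases before an annotated transcription start, from RefSeq on GRCm38.p6 and written 5′ to 3′ along the gene, with capitals marking letters that match a searched motif on either strand. The windows are Adipoq chr16:23146286-23146535 (+), Cfd chr10:79890603-79890852 (+), Lep chr6:29059971-29060220 (+) and the window of the third annotated Pparg start, chr6:115421816-115422065 (+).
Adipoq: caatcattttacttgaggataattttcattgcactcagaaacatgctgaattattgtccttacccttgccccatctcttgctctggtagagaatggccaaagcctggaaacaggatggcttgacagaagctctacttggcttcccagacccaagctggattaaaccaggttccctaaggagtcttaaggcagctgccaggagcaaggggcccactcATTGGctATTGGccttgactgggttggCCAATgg
Cfd: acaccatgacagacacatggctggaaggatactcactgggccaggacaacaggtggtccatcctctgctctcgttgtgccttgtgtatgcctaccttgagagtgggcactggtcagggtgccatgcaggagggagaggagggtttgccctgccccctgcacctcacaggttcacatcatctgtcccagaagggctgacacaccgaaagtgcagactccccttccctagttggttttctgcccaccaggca
Lep: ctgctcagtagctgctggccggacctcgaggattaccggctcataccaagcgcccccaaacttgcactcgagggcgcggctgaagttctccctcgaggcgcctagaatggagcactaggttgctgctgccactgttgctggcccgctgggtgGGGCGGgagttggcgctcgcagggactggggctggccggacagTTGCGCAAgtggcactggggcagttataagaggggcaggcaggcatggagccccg
Pparg: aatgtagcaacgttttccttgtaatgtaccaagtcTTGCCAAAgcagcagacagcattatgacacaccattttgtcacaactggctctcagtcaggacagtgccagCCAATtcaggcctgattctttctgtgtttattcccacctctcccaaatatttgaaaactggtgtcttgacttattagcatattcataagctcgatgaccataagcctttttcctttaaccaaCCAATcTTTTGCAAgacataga
The Adipoq window held 3 CCAAT letters, at -34 to -30, -27 to -23 and -7 to -3 from the start. The Lep window held a palindromic TTGCGCAA, a form of the C/EBP site, at -55 to -48 and a GC box at -98 to -93. The Pparg window held C/EBP site letters at -215 to -208 and -16 to -9 and CCAAT at -144 to -140 and -22 to -18. The windows of the first and second Pparg starts, not shown, held no C/EBP site letters. Both held GC box letters and the nuclear receptor letters AGGTCA. The Cfd window held none of the letters searched.

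Over both strands, C/EBP site letters (TTGCNNAA) were found in 4 of the 11 windows of the 8 genes present in the RefSeq table, 1 each of Plin1, Lep, Cidec and Pparg, against 9.56% of all 32851 windows of the same length. CCAAT was found in 4 of 11 against 33.8%, the GC box GGGCGG in 3 of 11 against 32.7%, TATAAA in 1 of 11 against 12.4%, and the nuclear receptor letters AGGTCA in 2 of 11, both of Pparg, against 14%. The direct repeat AGGTCANAGGTCA, which contains those letters and is the kind of element that PPARγ binds with RXR, was found in 0 of 11 against 0.0335%. These are matches of letters and not measured binding.

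Across the 30 tumors the 10 genes together took from 0.00145% to 0.875% of all counts, with a median of 0.00891%. KCL-HO-1i/gemcitabine replicate 2 held the 0.875% (91104 of 10406989 reads, 95% binomial interval 0.870% to 0.881%, which covers counting error only), and KCL-HO-1i replicate 4 held 0.698%. These 2 tumors carried 57.7% of all reads on the 10 genes. The members' summed level, in counts per 1000000 (CPM) scaled by the trimmed mean of M-values (TMM), had medians of 47.2 CPM in vehicle, 85.5 CPM in 5-FU, 85.8 CPM in gemcitabine, 829 CPM in KCL-HO-1i, 87.7 CPM in KCL-HO-1i/5-FU and 1190 CPM in KCL-HO-1i/gemcitabine tumors. The ranges overlapped in every pair of groups, since the lowest tumor of each group lay between 15.2 and 49.8 CPM and the highest between 233 and 9160 CPM.

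**Figure D1:**
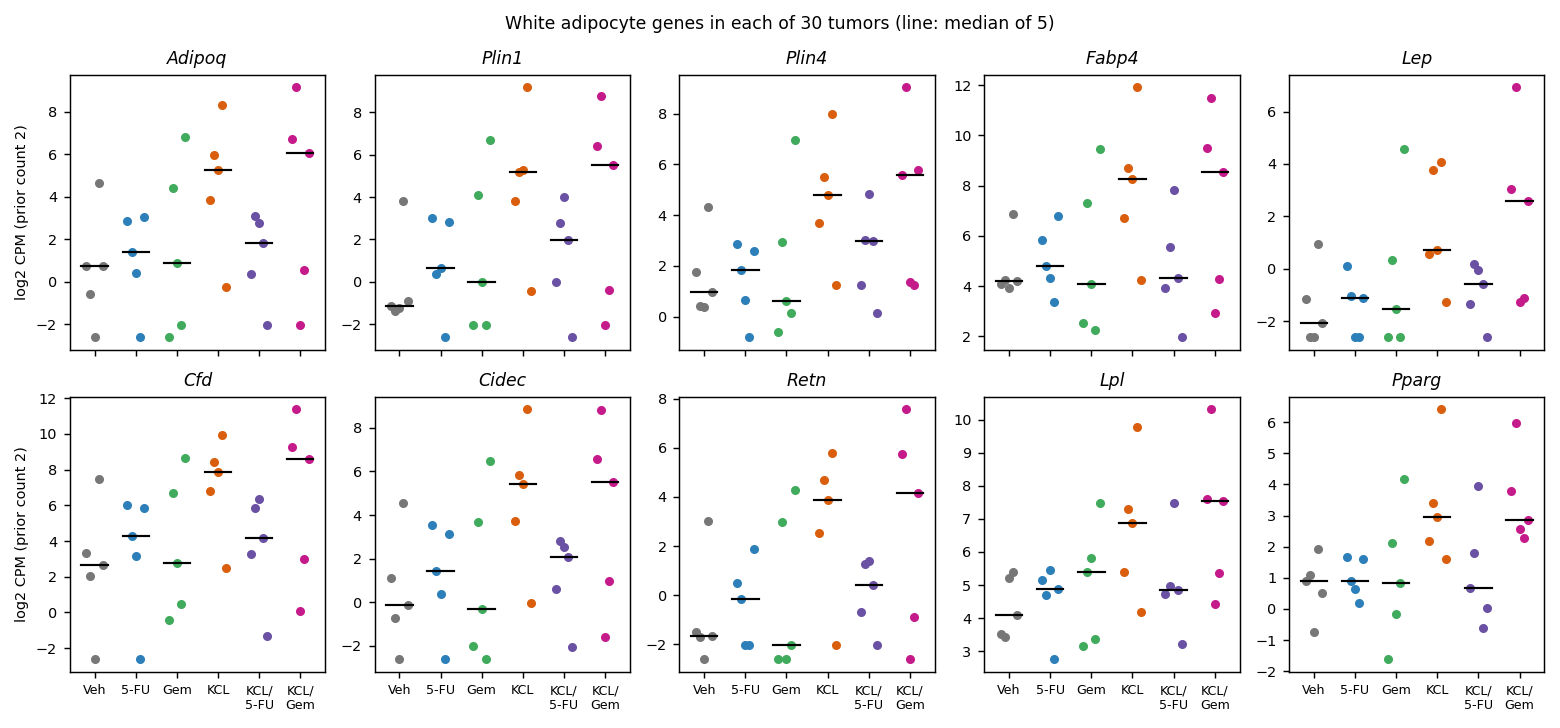
CPM of each white adipocyte gene in every tumor (log axis, 1 point per tumor, 5 tumors in each of the 6 groups, bar at the group median). The medians of the KCL-HO-1i/gemcitabine and KCL-HO-1i groups sit above the other 4 for every gene, while the tumors of each group are spread widely and overlap the other groups.

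The spread between tumors was very large for these genes. The SD of log2 CPM over the 30 tumors was 3.75 for Cfd, 3.45 for Plin1, 3.40 for Adipoq, 3.36 for Cidec, 3.04 for Retn, 2.68 for Fabp4, 2.58 for Plin4, 2.51 for Lep, 1.87 for Lpl and 1.85 for Pparg, against a median of 0.34 and a 99th percentile of 2.09 over all genes tested. Cfd thus ranked 4th of 13663 genes by SD, and Lpl and Pparg ranked 227th and 233rd. The share of this variance that lay between the 6 groups was 21.0% (Cfd) to 39.3% (Pparg), against a median of 20.5% over all genes tested, so most of it lay between tumors given the same treatment.

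Levels were compared between genes only per length, as median CPM per kilobase of exon. Cfd was the most abundant at 20.2 CPM per kb, followed by Fabp4 at 5.33, Lpl at 3.48, Adipoq at 2.10, Cidec at 1.79, Pparg at 0.999, Plin4 at 0.795, Retn at 0.596, Plin1 at 0.557 and Lep at 0.0933 CPM per kb. Cfd exceeded Fabp4 in 25 of 30 tumors and Fabp4 exceeded Lpl in 26 of 30. Lpl and Adipoq, Cidec and Pparg, Pparg and Plin4, and Retn and Plin1 were neighbors whose order held in only 14 to 19 of 30 tumors. Lep was measured at few reads, with 7 tumors at 0 and 18 under 10 reads. Where a tumor has no read of a gene, 3 reads set the limit on its level, which is 0.215 to 0.302 CPM in these libraries.

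Pparg (chr6:115360951-115490399, + strand, GRCm38), the nuclear receptor that directs adipocyte differentiation, was measured at 1.69, 1.96, 0.440, 3.65 and 1.26 CPM in vehicle replicates 1 to 5. In KCL-HO-1i/gemcitabine tumors it was at 13.7, 62.2, 5.70, 4.67 and 7.07 CPM. In KCL-HO-1i tumors it was at 4.38, 10.4, 7.54, 85.2 and 2.89 CPM. All 5 KCL-HO-1i/gemcitabine tumors lay above the highest vehicle tumor, whereas KCL-HO-1i replicate 5 lay below it. No overlap of those 5 with vehicle was seen for Pparg alone among the 10 genes, and for 2.2% of all genes tested. The 5-FU, gemcitabine and KCL-HO-1i/5-FU groups had medians of 1.70, 1.63 and 1.43 CPM, with highest tumors at 3.01, 17.7 and 15.2 CPM.

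The difference in mean log2 CPM of Pparg between KCL-HO-1i/gemcitabine and vehicle was 2.75 ± 0.80 (SE, n = 5 per group, exact two-sided permutation p = 0.00794, the smallest that 5 against 5 can give). Between KCL-HO-1i and vehicle it was 2.57 ± 0.94 (exact permutation p = 0.0159). These are among 70 such tests, over 10 genes and 7 pairs of groups, and none is adjusted for their number. In the same test KCL-HO-1i/gemcitabine against vehicle gave p of 0.0397 for Lpl and 0.0635 (Lep) to 0.198 (Cfd) for the other members. KCL-HO-1i against vehicle gave 0.0159 for Plin1, 0.0397 for Lpl and Fabp4, 0.0476 for Plin4 and 0.0556 (Lep) to 0.0794 (Adipoq) for the rest. In the fit across all genes by edgeR's quasi-likelihood test, neither Pparg difference passed at a Benjamini-Hochberg adjusted p of 0.05. The log2 fold changes of Pparg there were 3.36 ± 1.12 and 3.60 ± 1.13 (SE), with unadjusted p of 0.00570 and 0.00360.

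Lpl (chr8:68880491-68907448, + strand), the lipoprotein lipase that frees fatty acids from circulating lipoproteins, was at 11.2, 10.5, 37.2, 42.1 and 16.9 CPM in vehicle tumors. In KCL-HO-1i tumors it was at 41.5, 158, 118, 872 and 18.0 CPM, and in KCL-HO-1i/gemcitabine tumors at 194, 1280, 21.2, 41.1 and 187 CPM. In both of these groups 3 tumors exceeded every vehicle tumor and the other 2 lay within the vehicle range. Fabp4 (chr3:10204088-10208576, - strand), the cytosolic fatty acid carrier of adipocytes, was at 16.9, 18.8, 15.0, 116 and 18.3 CPM in vehicle tumors. It was at 104, 419, 307, 3900 and 18.9 CPM in KCL-HO-1i tumors and at 722, 2860, 7.44, 19.2 and 370 CPM in KCL-HO-1i/gemcitabine tumors. In each of these groups 3 tumors again exceeded all 5 vehicle tumors for Fabp4, and the rest lay within or below the vehicle range. Both genes had reads in every tumor, with a span from lowest to highest of 194-fold for Lpl and 1040-fold for Fabp4.

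Plin1 (chr7:79720218-79732903, - strand), the perilipin that coats the adipocyte droplet and gates lipolysis, was at 0.282, 0.218, 0.264, 13.7 and 0.372 CPM in vehicle tumors. In KCL-HO-1i tumors it was at 14, 36.3, 38.8, 587 and 0.577 CPM, so that 4 of 5 exceeded the highest vehicle tumor. In KCL-HO-1i/gemcitabine tumors it was at 83.6, 440, 0.0826, 0.603 and 45.1 CPM, with 3 of 5 above that tumor. Replicate 4 alone made up 86.7% of the summed Plin1 level of the KCL-HO-1i group. Cidec (chr6:113424634-113435760, - strand), which lets droplets fuse and enlarge, had medians of 0.744 CPM in vehicle, 42.6 CPM in KCL-HO-1i and 45.6 CPM in KCL-HO-1i/gemcitabine tumors. Plin4 (chr17:56100591-56109803, - strand), a perilipin of forming droplets, had medians of 1.79, 27.7 and 47.2 CPM in the same groups. Plin4 overlaps Hdgfl2, and Pparg overlaps Gm44079, each on the other strand, and the strand setting of the counting is not given in the sources used here, so reads of these pairs may be mixed.

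Adipoq (chr16:23146536-23158028, + strand), which encodes the fat-specific hormone adiponectin, was at 1.5, 0.509, 0, 24.6 and 1.49 CPM in vehicle tumors. In KCL-HO-1i tumors it was at 14.3, 61.5, 38.2, 319 and 0.660 CPM, and in KCL-HO-1i/gemcitabine tumors at 106, 569, 0.0826, 1.28 and 66.0 CPM. In each of these groups 3 tumors exceeded the highest vehicle tumor. In 5-FU tumors it was at 7.03, 2.43, 1.15, 0 and 8.08 CPM, in gemcitabine tumors at 0, 20.7, 1.65, 0.0776 and 112 CPM, and in KCL-HO-1i/5-FU tumors at 1.13, 8.45, 6.61, 3.37 and 0.0783 CPM. All tumors of 5-FU and KCL-HO-1i/5-FU thus lay below vehicle replicate 4, and 1 of 5 gemcitabine tumors lay above it.

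The other secreted products followed the same order of medians. Cfd (chr10:79890853-79892655, + strand), adipsin or complement factor D, had medians of 6.10 CPM in vehicle, 234 CPM in KCL-HO-1i and 386 CPM in KCL-HO-1i/gemcitabine tumors. Retn (chr8:3655770-3660110, + strand), which encodes resistin, had medians of 0.149, 14.5 and 17.7 CPM, and Lep (chr6:29060220-29073877, + strand), which encodes leptin, had medians of 0.0744, 1.49 and 5.91 CPM. KCL-HO-1i/gemcitabine replicate 2 made up 89.4% of the summed Lep level of its group, at 122 CPM. For all 10 genes the medians of the KCL-HO-1i/gemcitabine and KCL-HO-1i groups were the highest of the 6, and none of the 10 genes separated the KCL-HO-1i group from vehicle without overlap, as 0.747% of all genes tested did.

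**Figure D2:**
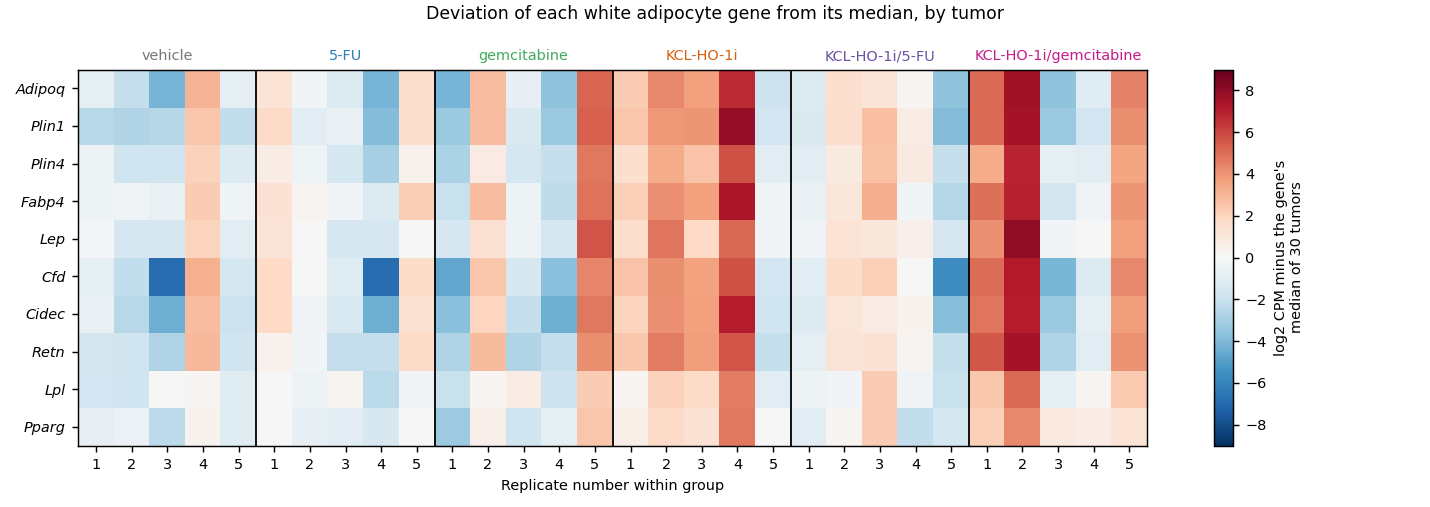
Log2 CPM of the 10 white adipocyte genes (rows) in the 30 tumors (columns, by group and replicate), shown as the difference from each gene's median over all tumors. KCL-HO-1i replicate 4 and KCL-HO-1i/gemcitabine replicate 2 are high for every gene, and within a tumor the 10 genes are mostly high or low together.

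To ask how tumors given KCL-HO-1i differed from those not given it, the 3 differences KCL-HO-1i minus vehicle, KCL-HO-1i/5-FU minus 5-FU and KCL-HO-1i/gemcitabine minus gemcitabine were averaged in edgeR's quasi-likelihood fit. Across all genes tested 0.0586% passed a Benjamini-Hochberg adjusted p of 0.05, and 0 of the 10 adipocyte genes did. All 10 had higher fitted levels with KCL-HO-1i, by a log2 fold change of 2.03 (Cfd) to 2.80 (Plin1) with a median of 2.31, where the median over all genes tested was -0.00069. At an unadjusted p of 0.05 all 10 were higher, against 13.7% of all genes tested. The 10 genes varied together, as described further on, and were chosen with earlier results of these data known. This count and those below are thus not counts of independent genes. Lpl was nearest to the threshold, with a log2 fold change of 2.28 ± 0.61 (SE) and an adjusted p of 0.0532, then Pparg with 2.21 ± 0.62 and an adjusted p of 0.0560, Fabp4 with 2.44 ± 0.84 and 0.0936, and Plin4 with 2.42 ± 0.84 and 0.0952. The other 6 had adjusted p of 0.102 (Plin1) to 0.214 (Cfd). Each of the 30 tumors carries a mouse code of its own and was taken as a separate mouse, as the study's text describes them, and these p-values cover the spread between these tumors. The methods say that mice were taken on different days, which the labels do not give.

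The calls depended on the tool and on single tumors. With DESeq2, 5 of 10 passed in the averaged comparison, where 8.34% of all genes tested did: Lpl at an adjusted p of 0.00497, Pparg at 0.00552, Fabp4 at 0.0199, Plin4 at 0.0237 and Plin1 at 0.0481. Without gemcitabine replicate 5, in which all 10 genes were the highest of their group, 7 of 10 passed in edgeR, with a lowest adjusted p of 0.0181 (Pparg), and so did 8.17% of all genes tested in that fit. Without KCL-HO-1i replicate 4 and KCL-HO-1i/gemcitabine replicate 2, the fold changes were 0.94 to 1.54 on the log2 scale and the lowest adjusted p was 0.210.

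The groups that enter this average were also compared one by one. Between KCL-HO-1i and vehicle the 10 genes had log2 fold changes from 3.09 ± 1.76 (SE, Cfd) to 5.51 ± 1.94 (Plin1), with a median of 3.8. None of them passed in edgeR, as 0% of all genes did (adjusted p from 0.339), and 9 of 10 were higher at an unadjusted p of 0.05, against 7.36% of all genes tested. Between KCL-HO-1i/gemcitabine and vehicle the log2 fold changes ran from 3.36 ± 1.12 (Pparg) to 5.98 ± 1.83 (Lep), with a median of 4.53. Again none of the 10 and 0% of all genes passed (adjusted p from 0.0902), and 10 of 10 were higher at the unadjusted p, against 11.7%. By exact permutation of mean log2 CPM, only Lpl (p = 0.0397) and Pparg (p = 0.00794) were below 0.05 for KCL-HO-1i/gemcitabine against vehicle. DESeq2 called 2 of 10 in the first of these comparisons (Fabp4 and Pparg), against 0.871% of all genes tested, and 7 of 10 in the second, against 6.46%. Without KCL-HO-1i replicate 4 the median log2 fold change of KCL-HO-1i against vehicle was 2.38, and without KCL-HO-1i/gemcitabine replicate 2 that of KCL-HO-1i/gemcitabine was 2.81. Without vehicle replicate 4, the highest vehicle tumor for all 10 genes, the medians were 6.10 and 7.20. Both comparisons share the vehicle tumors.

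Between KCL-HO-1i/5-FU and vehicle the 10 genes had log2 fold changes from -0.54 to 1.23 with a median of 0.50. None of them passed in edgeR, as 0% of all genes did, and 0 of 10 were higher at an unadjusted p of 0.05, against 9.79% of all genes tested. In mean log2 CPM the differences from vehicle ran from 0.06 (Fabp4) to 1.40 (Plin1), with unadjusted exact permutation p from 0.413. Against 5-FU alone, the same tumors had a median log2 fold change of 0.56, with 0 of 10 higher at the unadjusted p against 6.18%, and 0% of all genes passing. For KCL-HO-1i/gemcitabine against gemcitabine the median log2 fold change was 2.47. Here Lpl (2.55 ± 1.06) and Retn (3.28) made 2 of 10 higher at the unadjusted p, against 6.94%, and 0% of all genes passed, with adjusted p from 0.322 for the 10 genes.

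Each chemotherapy alone was also compared with vehicle. For 5-FU the log2 fold changes ran from -0.58 to 0.28 with a median of -0.25, 0 of 10 were higher at the unadjusted p against 1.65% of all genes tested, and 0% of all genes passed. Vehicle replicate 4 made up 87.5% of the summed Adipoq level of its group and 92.4% of that of Plin1. In mean log2 CPM the differences between 5-FU and vehicle ran from -0.14 (Plin4) to 1.02 (Plin1), with unadjusted exact permutation p from 0.492. For gemcitabine the edgeR log2 fold changes ran from 1.32 (Lpl) to 3.50 (Lep) with a median of 2.11, and 0% of all genes passed. Lep alone, 1 of 10, was higher at the unadjusted p, against 2.05% of all genes. The gemcitabine values rested on replicate 5: without it the median was -0.06, 4 of 10 genes were higher and the log2 fold change of Lep was -0.41.

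Whether the difference with KCL-HO-1i depended on the chemotherapy was tested by the interaction terms. The difference with KCL-HO-1i in the presence of 5-FU was smaller than in its absence by a log2 value of -4.88 (Plin1 and Cidec) to -2.27 (Plin4), with a median of -3.35, and 0% of all genes passed (adjusted p from 0.583 for the 10 genes). Fabp4 alone, 1 of 10, was lower at the unadjusted p, with -4.19 ± 2.04, against 4.51% of all genes tested. Without KCL-HO-1i replicate 4 these values ran from -2.84 to -0.65. For gemcitabine the interaction had a median of -1.47, 0 of 10 were past the unadjusted p in either direction, against 0.695% of all genes that were lower at it, and 0% of all genes passed. A difference between the groups in the size of the KCL-HO-1i difference was thus not shown, for either drug.

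**Figure D3:**
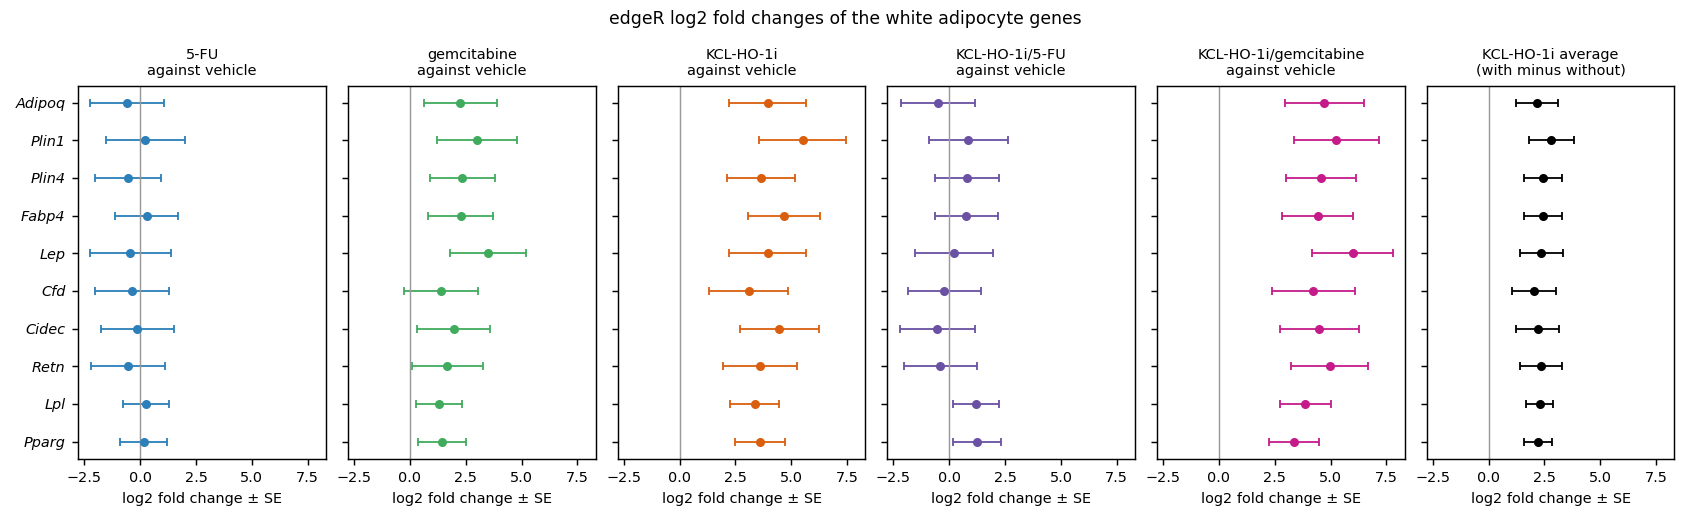
Log2 fold changes of the 10 white adipocyte genes from edgeR (points, bars are 1 SE) in the averaged KCL-HO-1i comparison and in each treatment against vehicle, with 5 tumors per group. Values run from -0.58 to 0.28 for 5-FU, from -0.54 to 1.235 for KCL-HO-1i/5-FU and from 1.32 to 3.50 for gemcitabine. They lie between 3.09 and 5.98 for KCL-HO-1i/gemcitabine and KCL-HO-1i, and none passes at an adjusted p of 0.05.

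The mouse codes in the labels carry a number whose meaning is not stated. The 4 tumors with number 70 were all treated with KCL-HO-1i, and they include KCL-HO-1i/gemcitabine replicate 2. The 7 tumors with number 76 were 3 5-FU and 4 gemcitabine tumors. Vehicle replicates 1 to 5 carried numbers 84, 63, 63, 88 and 91, and KCL-HO-1i replicates 1 to 5 carried 71, 70, 70, 69 and 65. With no number shared, number and treatment cannot be told apart between those groups. Without the 4 tumors of number 70 the log2 fold changes in the averaged comparison were 1.27 to 2.08, and with the number as a covariate, which leaves 12 residual degrees of freedom, they were 2.10 to 4.61. The lowest adjusted p were 0.394 and 0.454.

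Although they differed widely between tumors, the 10 genes varied together. Over the 30 tumors, log2 CPM of Cidec was correlated with that of Adipoq at r = 0.992 and rho = 0.979, Plin1 and Cfd at r = 0.978 (rho = 0.960 and 0.981), Retn at 0.966 (0.947), Fabp4 at 0.962 (0.947), Plin4 at 0.956 (0.948), Lep at 0.932 (0.955), Lpl at 0.876 (0.832) and Pparg at 0.828 (0.785). Each r and rho had a permutation p of 1e-05, the smallest that 100000 permutations can give, and an adjusted p of 1e-05 over the 9 relations. Without the tumors farthest from the median of Adipoq, KCL-HO-1i/gemcitabine replicate 2 and KCL-HO-1i replicate 4, r ran from 0.755 (Pparg) to 0.990 (Cidec). As deviations from the group means, r ran from 0.781 (Pparg) to 0.992 (Cidec), and within the 7 tumors of number 76 from 0.775 (Lpl) to 0.987 (Cfd). Lpl and Pparg were the members with the lowest r in all of these.

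**Figure D4:**
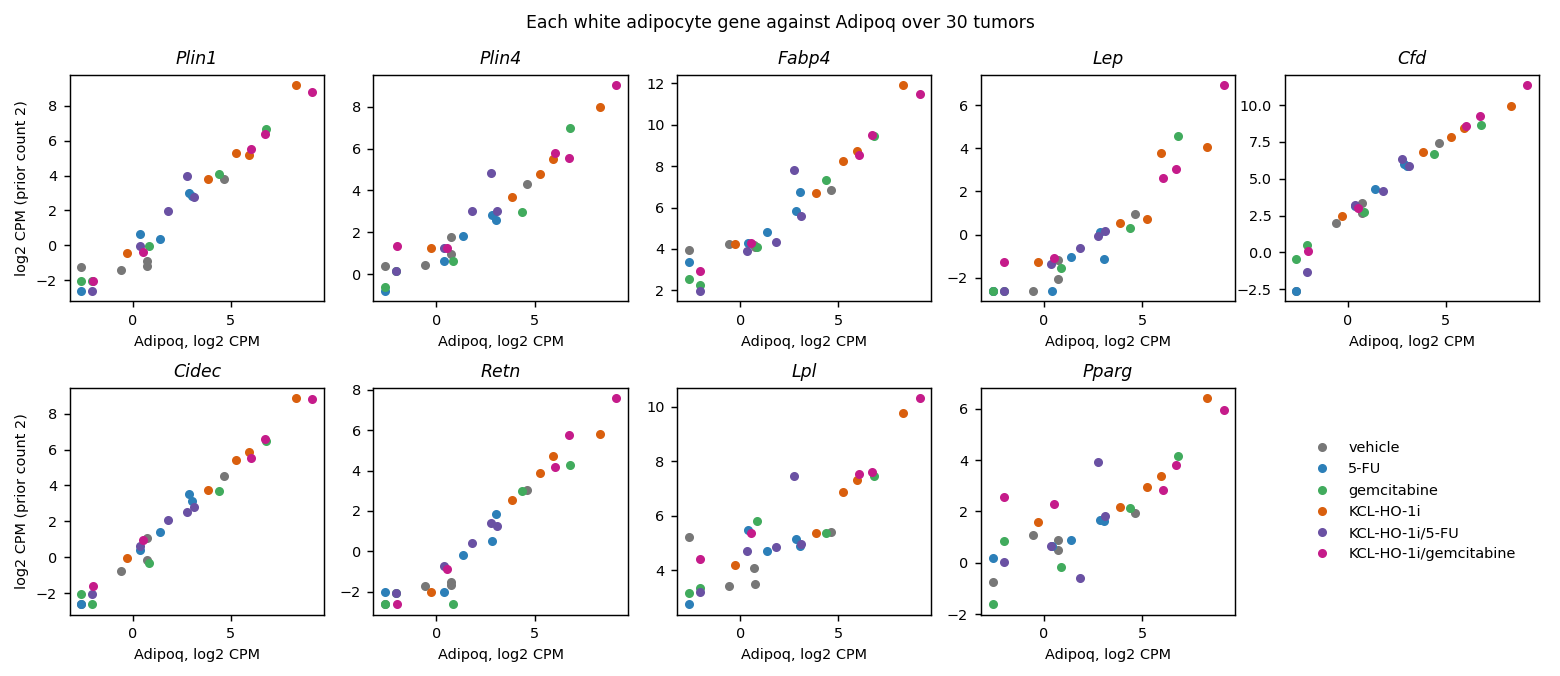
Log2 CPM of each of the other 9 white adipocyte genes against that of Adipoq, 1 point per tumor, colored by group (30 tumors). Points of all groups lie along the same band, tightest for Cidec (r = 0.992) and widest for Pparg (r = 0.828), and 1 KCL-HO-1i/5-FU tumor lies above it for Lpl and Pparg.

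That tumor was KCL-HO-1i/5-FU replicate 3. Among the 14 tumors with at least 50 Adipoq reads, its Lpl reads were 27.0 times its Adipoq reads, against a median of 2.78 and a next highest ratio of 5.08. All of its ratios share its Adipoq reads as the denominator. The ratio was 2.31 for Pparg against a median of 0.200, 34.6 for Fabp4 against 7.06, and 4.29 for Plin4 against 0.813. It was also the highest of the 14 tumors for Plin1 (2.37 against 0.838) and Cfd (12.5 against 5.99). For Cidec (0.840 against a median of 0.911) and Retn (0.373 against 0.353) it was near the median. KCL-HO-1i/5-FU replicate 3 also held the highest summed macrophage markers of the 30 tumors, at 2100 CPM, and the lowest summed luminal epithelium markers, at 2670 CPM. Its fibroblast and endothelium sums were also high, at 4510 and 390 CPM against group medians of 1130 and 98.1 CPM. Macrophages are known to use Lpl and Pparg as well. The part of macrophages, fibroblasts or endothelium in the ratios was not tested. KCL-HO-1i replicate 4 differed in another way, with the lowest Cfd ratio of the 14 tumors at 3.06 against a median of 5.99, and a Plin1 ratio of 1.84 against 0.838. Its Retn (0.176 against 0.353) and Lep (0.0521 against 0.0899) ratios were also low. Those of Fabp4 (12.2 against 7.06) and Cidec (1.46 against 0.911) were high. Only the Cfd ratio was an extreme of the 14 tumors. Others went further, to 0.172 for Retn, 0.0367 for Lep, 34.6 for Fabp4, 1.64 for Cidec and 2.37 for Plin1. KCL-HO-1i replicate 4 also held the highest brown and beige adipocyte markers, described at the end, and the part of such cells in its values was not tested.

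Markers of other cell types were summed per tumor, 8 genes for each of the lists named here. The tissue's own luminal epithelium markers, the keratins and other genes of the tumor's epithelial origin, were at 2670 to 6150 CPM in every tumor. With log2 CPM of Adipoq over the 30 tumors, the fibroblast sum had r = 0.847 and rho = 0.819, endothelium r = 0.684 and rho = 0.658, macrophage r = 0.655 and rho = 0.641, skeletal muscle r = 0.518 and rho = 0.383, and luminal epithelium r = -0.268. The permutation p of r, adjusted over the 9 lists, were 4.5e-05, 4.5e-05, 0.00021 and 0.0072 for the first 4, and those of rho were 9e-05, 0.000495, 0.00066 and 0.068, so that the rho of skeletal muscle did not pass. The adjusted p for luminal epithelium was 0.197 for r and 0.192 for its rho of -0.269. The lymph node and B cell list had r = 0.414 (adjusted p = 0.0402) and rho = 0.525 (adjusted p = 0.00772). Its sum was low, with 34.7 CPM in the highest tumor, gemcitabine replicate 3. The remaining lists, milk protein and proliferation among them, had adjusted p from 0.0528. Without the tumors farthest from the median of Adipoq, r was 0.808 for fibroblast, 0.525 for endothelium, 0.629 for macrophage, 0.272 for skeletal muscle and 0.0378 for luminal epithelium, whose sign thus turned.

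Skeletal muscle markers ranged from 2.11 to 37.7 CPM in vehicle, 1.55 to 191 CPM in 5-FU, 1.79 to 197 CPM in gemcitabine, 15.1 to 3750 CPM in KCL-HO-1i, 1.64 to 49.1 CPM in KCL-HO-1i/5-FU and 1.41 to 11000 CPM in KCL-HO-1i/gemcitabine tumors. The 2 highest were the 2 tumors with the most adipocyte reads, KCL-HO-1i/gemcitabine replicate 2 and KCL-HO-1i replicate 4, and the former also held the highest fibroblast sum at 12500 CPM. In contrast, gemcitabine replicate 5 and KCL-HO-1i/gemcitabine replicate 1, with Adipoq at 112 and 106 CPM, had muscle sums of 1.79 and 1.41 CPM. In the averaged KCL-HO-1i comparison 8 of 8 muscle genes were higher at an unadjusted p of 0.05 and none passed after adjustment in edgeR, with Pygm, Ttn and Myh4 at log2 fold changes of 3.70, 3.24 and 3.85. Of the fibroblast list 8 of 8, of the macrophage list 7 of 8 and of the endothelium list 5 of 8 were higher at the unadjusted p, and of the luminal list 0 of 8, where 13.7% of all genes tested were. The part of these cells in the values of the adipocyte genes was not tested.

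**Figure D5:**
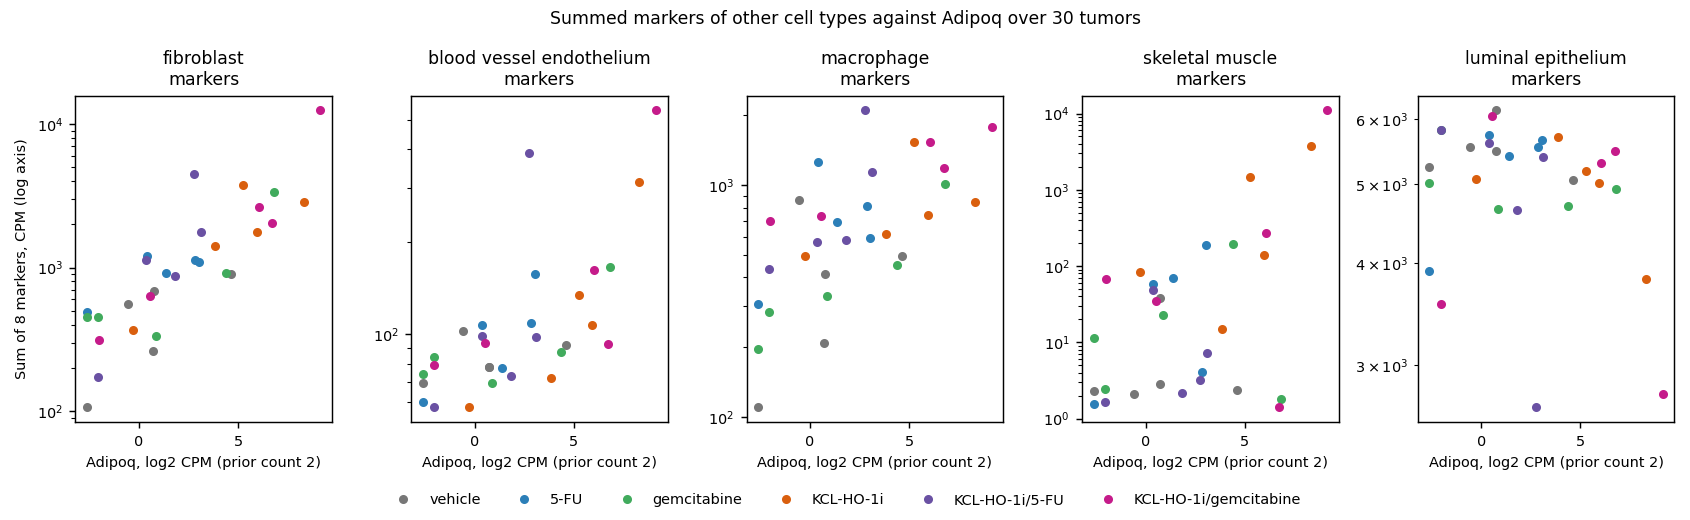
Summed CPM of the markers of 5 other cell types (log axes) against log2 CPM of Adipoq, 1 point per tumor, colored by group (30 tumors). The fibroblast sum follows Adipoq most closely (r = 0.847), the skeletal muscle sum reaches 11000 CPM in 1 KCL-HO-1i/gemcitabine tumor but is 1.41 CPM in another with high Adipoq, and the luminal sum is lowest at 2670 CPM.

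Lists of further genes of adipocyte biology were read in the averaged KCL-HO-1i comparison, where none of their genes passed after adjustment in edgeR and 13.7% of all genes were higher at the unadjusted p. Among transcription factors of adipocyte differentiation 6 of 10 were higher at the unadjusted p, with a median log2 fold change of 0.45. They included Rxra, the partner of PPARγ, at 0.36 ± 0.09 (adjusted p = 0.0525), Ebf1 at 1.53 and Nr1h3, the liver X receptor alpha, at 0.87. Of the lipid droplet and lipolysis list 9 of 12 were higher, with a median of 1.06, among them Plin5 at 1.42 and the monoglyceride lipase gene Mgll at 0.91. Of fatty acid uptake genes 5 of 8 were higher (median 0.62), with Cd36, a fatty acid translocase, at 2.69. Of fatty acid and triglyceride synthesis genes 7 of 15 were higher (median 0.47), among them Agpat2 at 1.05, Dgat2 at 1.72 and Gpd1 at 1.13, which act in triglyceride assembly. KCL-HO-1i replicate 4 was the highest tumor for Plin5 (89.5 CPM, next 9.45 CPM) and Gpd1 (4070 CPM, next 719 CPM). It was also the highest for Agpat2 (642 CPM, next 124 CPM) and Dgat2 (703 CPM, next 452 CPM). Fold changes of these lists without that tumor were not computed.

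Of 7 tested adipokines and other secreted products 4 were higher (median 1.16), with haptoglobin (Hp) at 2.16, Cxcl14 at 1.16 and the retinol carrier Rbp4 at 2.59. Among receptors and transporters 2 of 7 were higher (median 0.18), with the insulin-responsive glucose transporter Slc2a4 at 1.87, the adiponectin-binding cadherin Cdh13 at 0.98 and the adiponectin receptor Adipor1 at 0.11. Of adipocyte progenitor markers 4 of 8 were higher (median 0.70), with Pdgfra at 1.41, Cd34 at 0.91 and Ly6a at 0.88, which fibroblasts and endothelium also use. KCL-HO-1i replicate 4 was the highest tumor for Rbp4 (135 CPM, next 65.1 CPM) and Slc2a4 (147 CPM, next 85.8 CPM). KCL-HO-1i/gemcitabine replicate 2 was the highest for Hp (1320 CPM, next 1120 CPM) and Cd34 (138 CPM, next 68.4 CPM).

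Near relatives of the 10 genes did not all share their pattern. Fabp5, the relative of Fabp4 found widely in epithelium and macrophages, had a log2 fold change of 0.04 and a rho with Adipoq of -0.160, at a median of 115 CPM. Plin2 and Plin3, perilipins of most cell types, had log2 fold changes of -0.06 and -0.13 and rho of 0.133 and -0.232. Plin5, the perilipin of oxidative tissues, had 1.42 and a rho of 0.594. Retnla, the resistin-like molecule alpha of macrophages and fat, had 0.89 and a rho of 0.947, whereas Retnlb had no reads and Retnlg was not tested. Ppara and Ppard had log2 fold changes of 1.44 and 0.17, Cidea 2.06, Lipc -0.10 and Lipg -0.91, and Cideb was not tested. None of these passed after adjustment in edgeR. Plin5, Cidea and Ppara were each highest in KCL-HO-1i replicate 4, at 89.5, 744 and 39.7 CPM. The next highest tumors were at 9.45, 36.6 and 1.27 CPM.

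By likeness to the mean standardized log2 CPM of the 10 genes over the 30 tumors, the nearest other genes were Car3 (rho = 0.978), Rarres2 (0.977), Efemp1 (0.964), Dpep1 (0.959), Pck1 (0.956), Pi16 (0.948), C1s1 (0.946), Adrb3 (0.946), Serping1 (0.945) and Fcna (0.944). Car3 encodes a carbonic anhydrase abundant in fat and muscle and ranged from 0 to 5600 CPM, Rarres2 encodes chemerin, Pck1 the enzyme of glyceroneogenesis and Adrb3 the lipolytic beta-3 adrenergic receptor. The members themselves had rho of 0.850 (Pparg) to 0.986 (Cfd) with that mean, of which each is a part, and 66 other genes reached 0.9.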

How the data were processed

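Total RNA of 30 mammary tumors (6 groups of 5) was made into libraries with the NEBNext Ultra II Directional kit. Per the submitters' processing notes, reads were checked with FastQC 0.11.9 and processed with STAR 2.7.9a and Salmon 1.9.0 on mm10, and the methods name tximport for gene sums. The deposited table is described by the authors as TPM counts, but it holds estimated counts: 38% of values were not whole, and totals ran from 10067698 to 13622395. No annotation release or strand setting is given in the sources used here.

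The estimated counts were rounded and tested with edgeR 4.0.16 (R 4.3.3, limma 3.58.1): TMM scaling, filterByExpr (10 counts), quasi-likelihood F tests over all 30 tumors, Benjamini-Hochberg adjustment over 13663 genes, threshold 0.05. The genes left out held 0.0564% of counts. Log2 CPM used a prior count of 2. Exact permutation tests and 100000-fold permutation of correlations were run in scipy 1.17.1. The edgeR fit of the averaged comparison was tested on simulated counts whose spread was shared by all genes, unlike the wider spread of the members. The other comparisons, the permutation tests and the correlations were not simulated. Libraries showed no duplicate pairs. Exon lengths and coordinates came from a GRCm38 annotation, promoters from RefSeq. Alternatives were size factors, library totals, DESeq2 1.42.0, limma-voom, other filters, a replicate block, the mouse code number, only the groups compared, each tumor left out, and a prior count of 0.5. Leaving out sets of tumors and testing mean log2 CPM against the chemotherapies were added after seeing the data.

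The members and lists were chosen with earlier results of these data known. Besides the 10 members and their paralogs, the text names up to 3 genes per list with the smallest p in the averaged comparison and the 10 genes most alike to the members. Same-numbered replicates did not deviate together (mean correlation 0.00284 over 75 pairs, 0.00196 over 300 other pairs), so the numbers were not treated as pairs.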

Additional observations from a re-analysis of the deposited data

Results flagged for a closer look

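Among 60 sets of 5 tumors (log2 CPM of 10 genes in 6 groups), 4 had a tumor set apart from the other 4 by more than Dixon's 95% critical value of 0.71, where chance gives about 1 in 20. Vehicle replicate 4 stood above its group for Plin1 at 13.7 CPM, Fabp4 at 116 CPM and Retn at 7.97 CPM. These entries are 1 tumor in genes that varied together, so the sets are not independent. The other vehicle tumors were at 0.218 to 0.372 CPM for Plin1, near the limit set by 3 reads. 5-FU replicate 4 stood below its group for Lpl at 6.60 CPM.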

How the results depend on the processing

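In the averaged KCL-HO-1i comparison all 10 adipocyte genes had positive log2 fold changes under each of 40 alternatives, added ones included, with 0 to 7 of them past an adjusted p of 0.05. The number of genes called over the whole table moved far more: 8 by edgeR, 1139 by DESeq2, 267 by limma-voom, 0 with the mouse code number as a covariate, 2 without the tumors of number 70, and 3 to 1130 with each tumor left out (1130 without gemcitabine replicate 5). Against vehicle, where edgeR called 0, DESeq2 called 119 genes with KCL-HO-1i alone, 408 when 5-FU was added and 883 when gemcitabine was added. Limma-voom called 169 and 1322 with 5-FU and with gemcitabine, and leaving out single tumors gave 0 to 186 and 0 to 189. Against 5-FU alone DESeq2 called 44 genes in KCL-HO-1i/5-FU tumors (0 to 2 with a tumor left out in edgeR), against gemcitabine alone 45 in KCL-HO-1i/gemcitabine tumors, and 22 for the interaction with 5-FU. For gemcitabine against vehicle the code covariate called 1 gene and leaving out single tumors 0 to 3, and the log2 fold changes of Lep (3.50) and Lpl (1.32) became -4.76 and -0.65 with the code covariate. Leaving out single tumors gave -0.41 to 5.69 for Lep. The causes were not tested. Fitted on the compared groups alone, Lep (gemcitabine against vehicle) and Plin1 and Lep (KCL-HO-1i/gemcitabine against vehicle) fell under the filter and gave no value. With a replicate block, edgeR called 12 genes in the averaged comparison, 3 between KCL-HO-1i/5-FU and vehicle, and 0 of the 10 adipocyte genes, whose log2 fold changes were 2.12 to 2.86.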

Other observations

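Brown and beige adipocyte markers, genes of heat-producing fat, were high in 1 tumor. All 9 markers of that list reached their highest level in KCL-HO-1i replicate 4. Ucp1, which encodes the uncoupling protein of brown fat, was at 1680 CPM there, with a next highest tumor at 53.2 CPM, a median of 0.0835 CPM and 10 tumors at 0. Cidea was at 744 CPM (next 36.6 CPM), Cox8b at 278 CPM (next 49.0 CPM), Elovl3 at 154 CPM (next 5.26 CPM) and Ppara at 39.7 CPM (next 1.27 CPM). KCL-HO-1i/gemcitabine replicate 2, the tumor with the most Adipoq, was not the highest for any of the 9. In the averaged KCL-HO-1i comparison 6 of 9 were higher at an unadjusted p of 0.05, against 13.7% of all genes tested, and none passed after adjustment in edgeR, with Cox8b, Cidea and Prdm16 at log2 fold changes of 2.08, 2.06 and 1.5.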
